A study of Schizosaccharomyces pombe with 15 samples.

Results

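Scr1 binding was examined at 7 genes of gluconeogenesis and glycerol metabolism, fbp1, gld1, dak1, dak2, gpd1, gpd2 and gut2, out of 5113 annotated protein-coding genes on chromosomes I, II and III. A gene was counted in a peak list if at least 1 peak had its summit inside the gene or within 2000 bp upstream of the annotated gene start. The genes were chosen by name and not by their peaks, but earlier results of these lists were known when they were chosen. Chromatin immunoprecipitation followed by sequencing (ChIP-seq) was performed on Scr1 carrying a tandem affinity purification (TAP) tag, in 3 groups with 2 biological replicates each. In every group the tagged scr1::TAP-KanMX6 allele is part of the genotype, and the tag was precipitated with an antibody against Protein A.

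The first group was laboratory S. pombe in molasses, with the strain label 972h- Scr1-TAP and a genotype label of h+ with the alleles ura4-d18, leu1-32 and ade6-m216 beside the tagged scr1. These labels name different mating types, and the growth label does not name molasses, which is given as the treatment. The other groups were Wilmar-P, an industrial isolate used for molasses fermentation, with the genotype h90 scr1::TAP-KanMX6, in molasses or in 3% glucose. Cells were grown in glucose medium, washed, divided between the test media and kept there for 4 h. Wilmar-P lists of the 2 media may therefore share a starting culture, but no label says that equal replicate numbers mark one. The laboratory group therefore differs from Wilmar-P in auxotrophic markers as well as in background, and these cannot be told apart. No laboratory list in glucose was analysed here, so the media are compared in Wilmar-P alone.

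Scr1 is a zinc finger repressor that holds down genes for the use of other carbon sources while glucose is present. Gluconeogenesis builds hexose phosphates from smaller carbon compounds, and fbp1 encodes fructose-1,6-bisphosphatase, an enzyme needed for this route and a classical glucose-repressed gene of S. pombe. On glycerol, fission yeast oxidises glycerol to dihydroxyacetone with glycerol dehydrogenase (gld1) and phosphorylates it with dihydroxyacetone kinases (dak1 and dak2). The glycerol-3-phosphate dehydrogenases Gpd1 and Gpd2 work towards glycerol synthesis, and gut2 encodes the mitochondrial enzyme that oxidises glycerol-3-phosphate.

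The 6 lists differed in size and composition. The laboratory lists held 4239 and 4479 peaks in replicates 1 and 2, of which 90.8% and 91.5% had their summit in a coding exon. Wilmar-P gave 961 and 1073 peaks in molasses, with 25.6% and 34.7% coding summits, and 386 and 228 peaks in glucose, with 35.0% and 8.33%. The median fold enrichment over background was between 1.77 and 1.80 in the laboratory lists, between 2.74 and 3.69 for Wilmar-P on molasses and between 3.52 and 5.46 in glucose. The files hold no read numbers, so depth is unknown. Counts of genes were therefore read against the same count over all protein-coding genes, and peaks were ranked within their own list by the deposited −log10 p, with rank 1 the strongest.

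Sequences at or beside the strongest upstream summits are shown first, because the positions of these summits barely moved between strains and media. Each stretch was placed by the marked words found within 100 bp of the summits and not by the summits themselves. All were read from the reference of the laboratory strain (ASM294v2), 5′ to 3′ on the strand of the gene, and the Wilmar-P sequence of these places was not analysed here. Capitals mark 6-base words of the Mig1-type, that is CCGGGG or CTGGGG or GCGGGG or GTGGGG, and of the cAMP response element TGACGT, each searched on both strands. Mig1-type words are those bound by Mig1, a related glucose repressor of Saccharomyces cerevisiae, and the cAMP response element is the word bound by the Atf1-Pcr1 activator. The stress response element CCCCTC, read by Rst2, was searched as well. No Mig1-type word contains CCCCTC or TGACGT, and none of the marked words overlap. A match is a description of letters and not a mapped binding site.
gld1 upstream site, chrI:2177215-2177244, minus strand: ttgtatatatttCCCCAGattttcagcaag
gpd1 upstream site, chrII:4035388-4035552, plus strand: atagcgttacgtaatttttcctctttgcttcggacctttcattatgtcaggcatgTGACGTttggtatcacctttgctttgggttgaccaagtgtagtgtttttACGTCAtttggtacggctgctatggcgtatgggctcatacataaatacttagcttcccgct
gut2 upstream site, chrIII:1843557-1843708, minus strand: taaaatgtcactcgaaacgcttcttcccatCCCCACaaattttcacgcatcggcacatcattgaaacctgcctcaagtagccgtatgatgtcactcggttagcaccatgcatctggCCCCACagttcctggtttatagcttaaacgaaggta
fbp1 distal site, chrII:202083-202239, minus strand: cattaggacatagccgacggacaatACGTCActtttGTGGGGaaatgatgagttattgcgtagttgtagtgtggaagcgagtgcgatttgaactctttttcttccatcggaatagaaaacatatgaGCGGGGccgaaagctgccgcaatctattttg

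The gld1 stretch was kept to 30 bases, since it lies in the 3′ untranslated region (UTR) of the neighbouring gene vta1. The gld1 summits, from chrI:2177179 to chrI:2177211, lie beside this stretch and not in it. It holds CCCCAG, the reverse complement of CTGGGG, at chrI:2177227-2177232. The gpd1 stretch holds TGACGT at chrII:4035443-4035448 and its reverse complement ACGTCA at chrII:4035492-4035497, and no Mig1-type word. The gut2 stretch holds CCCCAC, the reverse complement of GTGGGG, at chrIII:1843587-1843592 and again at chrIII:1843673-1843678. The fbp1 distal stretch holds ACGTCA at chrII:202209-202214, GTGGGG at chrII:202198-202203 and GCGGGG at chrII:202108-202113. Summits of the 6 lists lay 2 to 12 bp from the middle of GTGGGG.

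By the rule, all 7 genes had a peak in both laboratory lists, where 69.3% of all protein-coding genes did. In Wilmar-P in molasses 4 of the 7 did, gld1, dak2, gpd1 and gut2, against 17.6% of all genes, and for Wilmar-P on glucose 3 did, gld1, gpd1 and gut2, against 4.93%. With summits in coding exons left out, the count was 5 in the laboratory lists, gld1, dak2, gpd1, gpd2 and gut2, against 5.48% of all genes. In Wilmar-P in molasses it was 3, against 13.1%, and in glucose 3, against 4.62%, with gld1, gpd1 and gut2 in both media. These 3 genes had such a summit in all 6 lists, which 3.74% of all genes had.

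Between strains in molasses, fbp1, dak1 and gpd2 had a peak in both laboratory lists and not in both Wilmar-P lists, 3 of 7 where 54.3% of all genes fell in this class, so the count is near the background. No member had the opposite pattern, which 2.7% of all genes had. Between media in Wilmar-P, 1 member, dak2, had a peak in both molasses lists and not in both glucose lists, against 12.8% of all genes. Taken by replicate number, dak2 was missing from glucose in pair 2 only, so that 0 members had a peak in molasses and none in glucose in both pairs, where 10.3% of all genes did. No member had a peak in both glucose lists without one in both molasses lists, as for 0.0587% of all genes. With 2 lists a group no test across replicates was run, because an exact permutation test of 2 against 2 cannot give a p-value below 0.333.

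**Figure D1:**
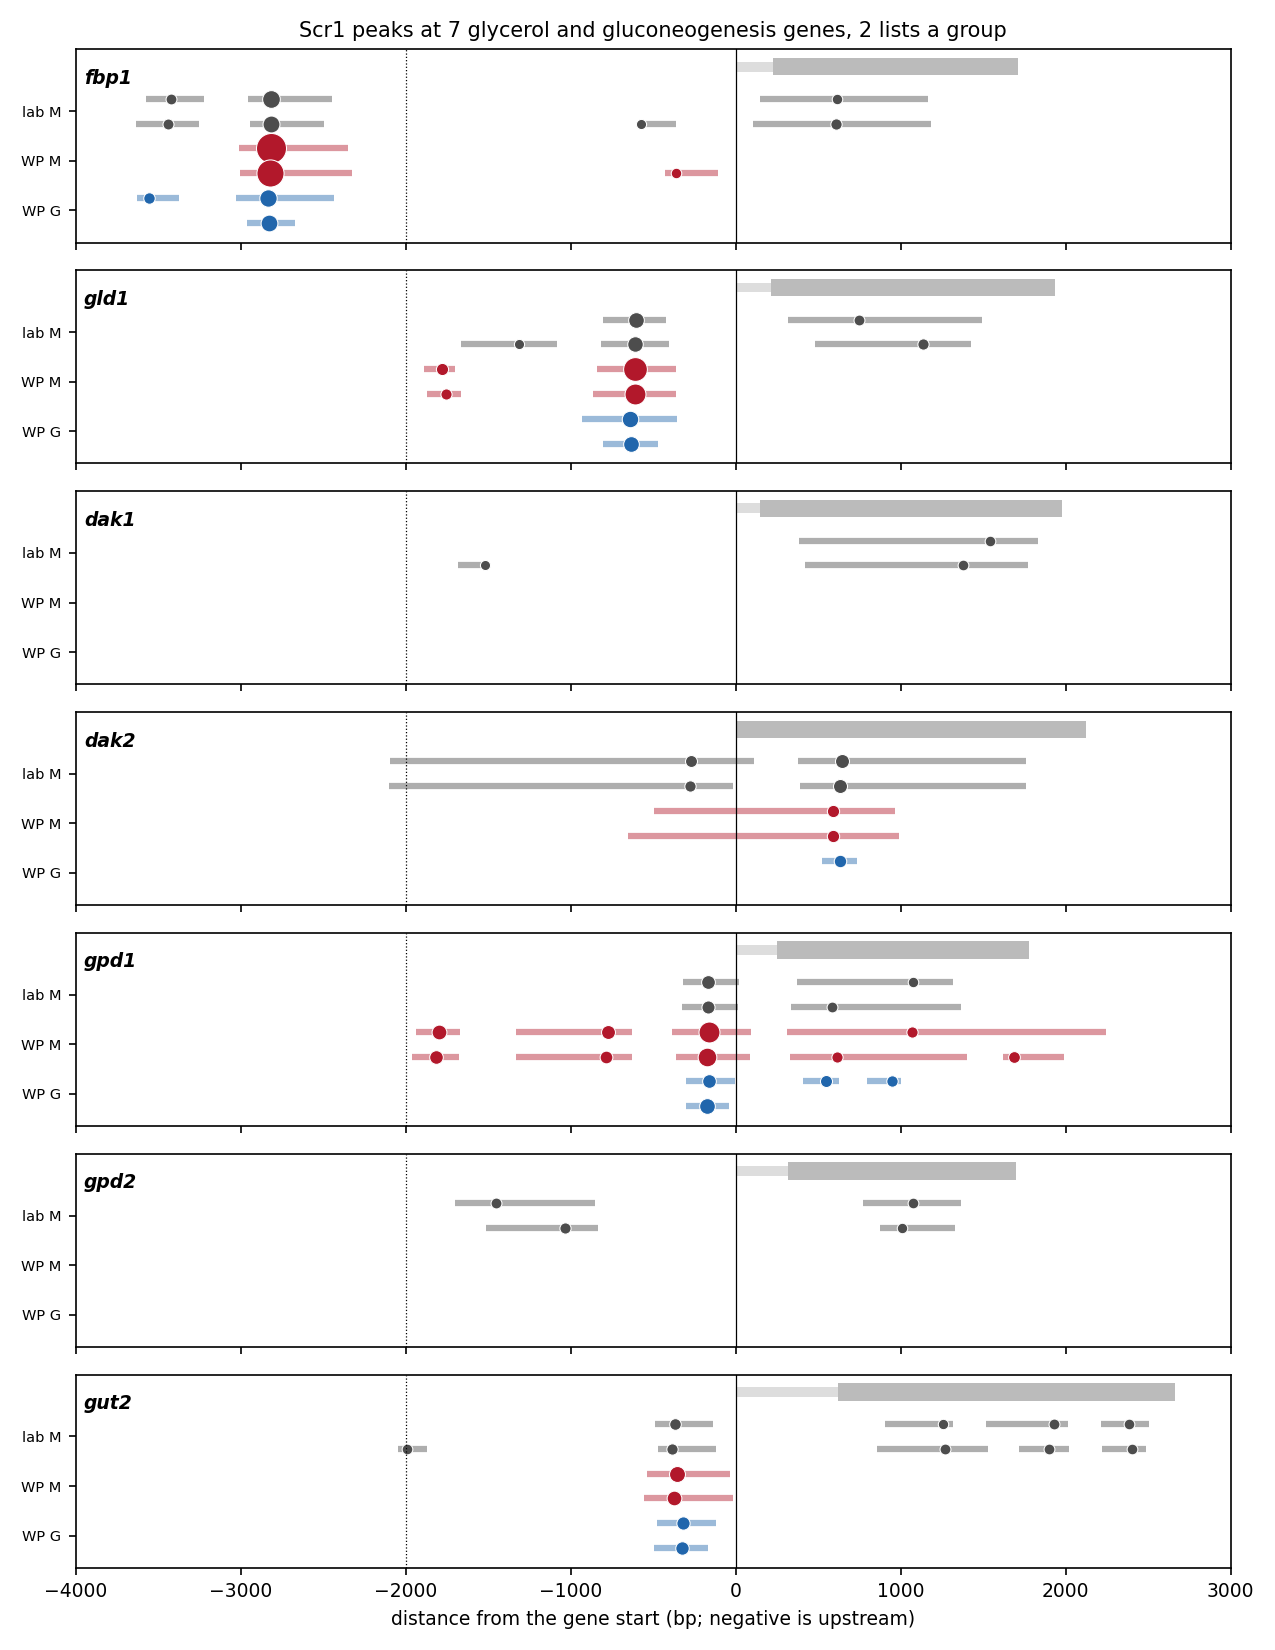
Peaks at the 7 genes, by distance from the gene start in bp (x axis, negative is upstream), with the lists of replicates 1 and 2 of laboratory S. pombe in molasses (lab M, grey), Wilmar-P in molasses (WP M, red) and Wilmar-P in 3% glucose (WP G, blue) as rows. Lines are peak extents, dots are summits whose size grows with fold enrichment, the dark bar runs from the coding start to the gene end and the dotted line marks 2000 bp upstream. The summits of gld1, gpd1 and gut2 line up in all 6 rows, fbp1 has a column of summits left of the dotted line, and dak1 and gpd2 have laboratory peaks only.

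Glycerol dehydrogenase, the first enzyme of glycerol oxidation, is encoded by gld1 (SPAC13F5.03C, chrI:2174641-2176572, minus strand). Its best summit was 607 and 610 bp upstream of the gene start in the laboratory lists, 608 and 609 bp for Wilmar-P on molasses, and 639 and 634 bp in glucose. All 6 summits fell within 32 bp, at the end of vta1 and within the annotated noncoding RNA SPNCRNA.801, so the rule also gives this peak to vta1. Fold enrichment was 8.04 and 7.76 in the laboratory lists, 27.6 and 19.5 for Wilmar-P on molasses, and 9.44 and 8.04 in glucose. The Wilmar-P molasses values were above those of both other groups, which overlapped each other. In rank the peak stood at 56 and 51 of the laboratory lists, 57 and 74 for Wilmar-P on molasses and 43 and 33 in glucose. The laboratory lists held a further, broad peak in the coding exon, of 1177 and 950 bp, with enrichments of 1.96 and 2.29. No such peak was called in either Wilmar-P group. The Wilmar-P molasses lists instead held a weak second summit 1779 and 1755 bp upstream, inside the coding exon of vta1 and also upstream of mpd1, with enrichments of 3.16 and 2.18. Laboratory replicate 2 had a weaker one 1314 bp upstream, also in vta1, with 1.39.

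The CCCCAG word lay 47 to 50 bp from the summits in the 4 molasses lists and 18 to 23 bp in the glucose lists. A Mig1-type word within 100 bp was present at 17.1% to 18.1% of all laboratory summits outside coding exons, at 17.8% and 18.0% for Wilmar-P on molasses and at 29.5% and 29.7% in glucose. In windows of the same length just upstream of all protein-coding genes the share was 5.09%. Over the whole 2000 bp upstream of gld1 there were 7 Mig1-type words and 4 stress response elements, where 39.8% and 16.7% of all genes had at least 1. These shares do not say how common 7 or 4 words are. Of these words only CCCCAG lay within 100 bp of the best gld1 summits.

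Genes sharing a peak with gld1, among them vta1, were left out before the genes nearest to it were sought. Of the remaining genes, 5 had the best-peak percentiles over the 6 lists nearest to those of gld1. They were SPCC1235.01 (uncharacterized), SPBPB7E8.02 (PSP1 family protein), SPAC25B8.12C (nucleotide-sugar phosphatase), gdh1 (NADP-specific glutamate dehydrogenase) and tti1. The percentile is the share of the peaks of a list with a lower −log10 p, and for gld1 it was 98.7 and 98.9 in the laboratory lists, 94.1 and 93.1 for Wilmar-P on molasses and 88.9 and 85.5 in glucose. The mean absolute difference was 1.05 percentile points for SPCC1235.01, 1.18 for SPBPB7E8.02, 1.28 for SPAC25B8.12C and 1.45 for gdh1 and tti1, whose shared peak gives them the same values.

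Of the enzymes that make glycerol-3-phosphate from dihydroxyacetone phosphate, gpd1 (SPBC215.05, chrII:4035566-4037342, plus strand), known as the osmotic stress-induced isoenzyme, had an upstream peak in all 6 lists. Its best summit lay 167 and 171 bp upstream of the gene start in the laboratory lists, 161 and 177 bp for Wilmar-P on molasses and 163 and 175 bp in glucose. The 6 summits spanned 16 bp, inside the annotated noncoding RNA SPNCRNA.1657. Fold enrichment was 5.11 and 4.24 in the laboratory lists, 19.5 and 13.9 for Wilmar-P on molasses and 4.99 and 8.07 in glucose. Again the Wilmar-P molasses values lay above all others, and the glucose replicates were further apart than the laboratory ones. The ranks were 76 and 88, 67 and 79, and 138 and 53 in the same order. TGACGT lay 40 to 56 bp from the 6 summits. This word was within 100 bp of 13.5% and 14.2% of laboratory summits outside coding exons, 14.0% and 13.7% for Wilmar-P on molasses and 19.1% and 23.9% in glucose, and in 4.83% of windows upstream of all genes. Neither a Mig1-type word nor CCCCTC was found in the 2000 bp upstream of gpd1.

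The gene body of gpd1 was the only one with a peak over the coding exon in 5 of 6 lists beside that of dak2. In the laboratory lists these peaks had enrichments of 1.64 and 1.93, for Wilmar-P on molasses 2.28 and 2.23, and in glucose replicate 1 a pair of narrow peaks had 3.02 and 2.40. Glucose replicate 2, the shortest list, had none. Wilmar-P molasses replicate 2 also held a peak in the 3′ UTR, with 2.76.

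The sister gene gpd2 (SPAC23D3.04C, chrI:4342230-4343927, minus strand) was called in the laboratory strain alone. Its upstream summits were 1454 and 1034 bp from the gene start in the 2 lists, 420 bp apart, both in the noncoding RNA SPNCRNA.979. Their enrichments were 1.96 and 2.24 and their ranks 1188 and 560. A second peak in the coding exon, which the rule also gives to SPAC23D3.03C, had 1.83 and 1.62. The nearest Wilmar-P summits lay 17821 to 18344 bp away. None of the Mig1-type, stress response or cAMP response words was found in the 2000 bp upstream of gpd2.

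The mitochondrial glycerol-3-phosphate dehydrogenase gene gut2 (SPCC1223.03C, chrIII:1840594-1843256, minus strand) had a weaker site in all 6 lists. The summit lay 371 and 389 bp upstream of the gene start in the laboratory lists, 357 and 374 bp for Wilmar-P on molasses and 320 and 324 bp in glucose, a span of 69 bp inside the noncoding RNA SPNCRNA.1235. Fold enrichment was 2.61 and 2.31 in the laboratory lists, 8.47 and 6.47 for Wilmar-P on molasses and 4.46 and 4.69 in glucose. The 3 groups did not overlap, and the order was Wilmar-P in molasses, Wilmar-P in glucose, laboratory. Wilmar-P in glucose differs from the laboratory group in both strain and medium. The share of all places with this order of 3 groups was not counted. Ranks were 238 and 442 in the laboratory lists, 268 and 259 for Wilmar-P on molasses and 168 and 163 in glucose. The CCCCAC word nearer the gene was 9 to 56 bp from the summits, closest in glucose at 13 and 9 bp. The laboratory lists also held 3 weak peaks each in the coding exon of gut2, with enrichments from 1.57 to 1.96, and replicate 2 held a further one 1992 bp upstream in set11.

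**Figure D2:**
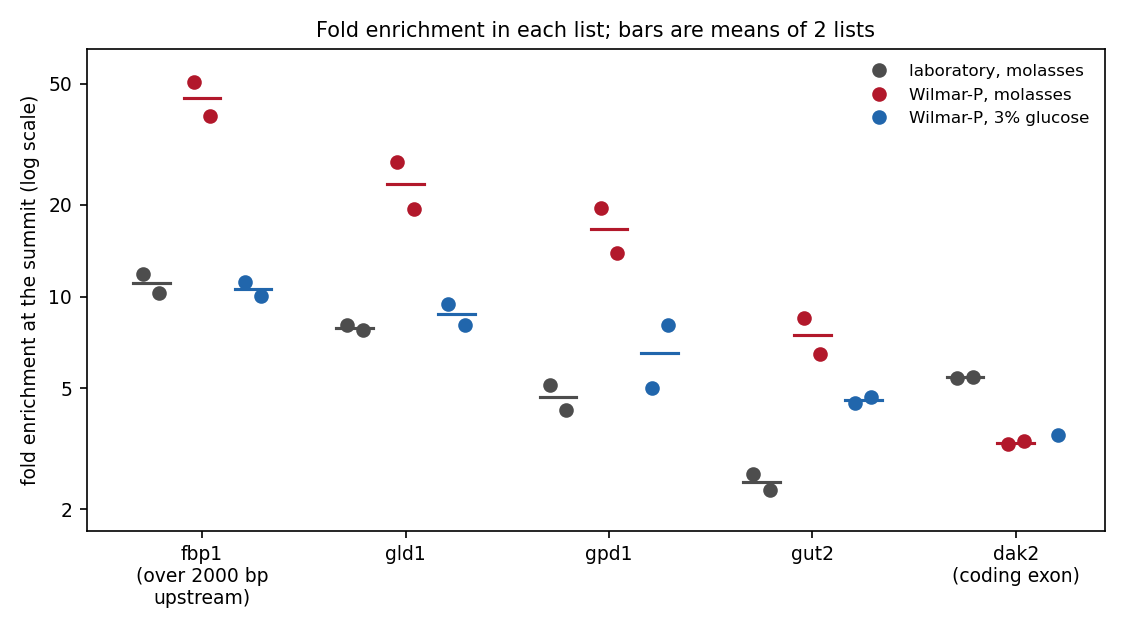
Fold enrichment at the summit of the best peak (y axis, log scale) for 5 sites in each list, with laboratory S. pombe in molasses in grey, Wilmar-P in molasses in red and Wilmar-P in 3% glucose in blue. Dots are lists and bars the mean of 2 lists, and dak2 in glucose has a peak in 1 list only. Wilmar-P in molasses is highest at the fbp1 distal site, gld1, gpd1 and gut2, from 50.9 and 39.3 down to 8.47 and 6.47, and the laboratory values are highest at dak2.

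The higher enrichment of gld1, gpd1 and gut2 for Wilmar-P on molasses was not particular to these genes. Among 196 places outside coding exons with a summit within 250 bp in all 4 molasses lists, both Wilmar-P values exceeded both laboratory values at 92.9%, as at these 3 genes. The ratio of the mean enrichments had a median of 3.76 over these places, with quartiles of 2.72 and 5.16, and was 2.98 at gld1, 3.58 at gpd1 and 3.03 at gut2. Among 165 such places shared by the media in Wilmar-P, both molasses values exceeded both glucose values at 94.5%. The median ratio was 2.97, with quartiles of 2.21 and 3.80, against 2.69 at gld1, 2.56 at gpd1 and 1.63 at gut2. The gut2 ratio was low among them, with 11.5% of places below it. Between lists of the same number the ratio was 2.92 and 2.42 at gld1, 3.91 and 1.73 at gpd1 and 1.90 and 1.38 at gut2, above 1 in both pairs at each gene. These comparisons were chosen after the data were seen, and the ratios move with the depth of each library and with the input. The series holds a single input sample for each group, so the lists of a group may share their background. Any property of that input would move the values of both replicates together. It cannot be told apart here from a difference of strain or medium.

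Each ratio within a list sets 2 sites of a single ChIP library side by side, but each site is measured over its own local background. By these ratios gut2 came last of the 3 sites in all 6 lists. The gld1 site came first in 5, with gpd1 level with gld1 in glucose replicate 2. The enrichment of gut2 relative to gld1 was 0.325 and 0.298 in the laboratory lists, 0.307 and 0.333 for Wilmar-P on molasses, and 0.473 and 0.583 in glucose. The strains overlapped in molasses, and both glucose lists were higher. For gpd1 relative to gld1 the ratios were 0.636 and 0.546, 0.707 and 0.716, and 0.529 and 1.00, so that Wilmar-P in molasses stood above the laboratory lists and the glucose replicates spanned both. Setting these ratios side by side does compare libraries, and depth and input can still move them. The same ratios for other pairs of places were not computed, so neither difference has a background.

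The dihydroxyacetone kinase genes, whose products act after Gld1, gave different pictures. For dak2 (SPAC977.16C, chrI:64559-66679, minus strand), which lies 64559 bp from the left end of chromosome I and has no annotated 5′ UTR, the best peak lay inside the coding exon in 5 of the 6 lists. Its summit was 646 and 634 bp downstream of the gene start in the laboratory lists, 592 and 587 bp for Wilmar-P on molasses and 634 bp in glucose replicate 1. Fold enrichment was 5.42 and 5.42 in the laboratory lists, 3.27 and 3.35 for Wilmar-P on molasses and 3.51 in the 1 glucose list. Unlike the upstream sites, the laboratory values were the higher ones, and the ranks were 75 and 67 there, 411 and 335 for Wilmar-P on molasses and 191 in glucose. How often laboratory values are the higher ones at coding-exon peaks of all genes was not counted. The difference is therefore not read as particular to dak2. The dak2 locus is described by the study as a region of altered copy number in the Wilmar background. Copy number was not analysed here, and its part in the strain difference at dak2 was not tested. The peaks were broad, 1381 and 1373 bp in the laboratory lists and 1461 and 1641 bp for Wilmar-P on molasses, but 215 bp in glucose. The laboratory lists held another broad peak of 2206 and 2083 bp with its summit 273 and 275 bp upstream, in the 5′ UTR of the divergent gene SPAC977.17, which encodes a MIP superfamily (major intrinsic protein) channel protein. Its enrichments were 2.95 and 2.31. In Wilmar-P in molasses the dak2 peak itself reached into that region, and the rule gives every dak2 peak to SPAC977.17 too.

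For dak1 (SPAC22A12.11, chrI:1176920-1178897, plus strand) only the laboratory lists held a peak in the gene, broad and late in the coding exon at 1540 and 1377 bp from the gene start, which the rule gives to mug84 as well. The enrichments were 1.75 and 1.82 and the ranks 2122 and 2019. Laboratory replicate 2 held 1 more peak, 1521 bp upstream in ept1, with an enrichment of 1.34. The nearest Wilmar-P summits were 6566 to 7879 bp from the gene start on the far side of the gene in 3 lists and 24959 bp upstream in glucose replicate 2. There were 2 Mig1-type words in the 2000 bp upstream of dak1, and no list had a summit within 100 bp of either.

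Of all members fbp1 (SPBC1198.14C, chrII:197660-199369, minus strand) depended most on the distance allowed. Within 2000 bp, the laboratory lists held a broad peak over the coding exon at 616 and 605 bp from the gene start, also within reach of tfg2, with enrichments of 1.65 and 2.32 and ranks of 2503 and 317. Weak upstream peaks were called in 1 list of each strain, 576 bp upstream in laboratory replicate 2 with 1.38 and 363 bp upstream in Wilmar-P molasses replicate 2 with 1.66. The latter summit lay 59 bp from a CCCCTC word, found near 4.56% of the summits outside coding exons of that list and in 1.47% of the windows just upstream of all genes. No glucose list held a peak by the rule.

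Just beyond the limit, all 6 lists held a strong peak 2819 to 2833 bp upstream of fbp1. It lay in intergenic sequence between the noncoding RNA fbp1-ot2 and the divergent gene wwm3, whose start is 79 to 93 bp from the summits. Fold enrichment was 11.9 and 10.3 in the laboratory lists, 50.9 and 39.3 for Wilmar-P on molasses and 11.2 and 10.05 in glucose. It ranked 22 and 21, 21 and 19, and 28 and 10, ahead of every peak the rule gave to a member in each of the 6 lists. The ratio of Wilmar-P to laboratory enrichment in molasses was 4.07, with 57.1% of the 196 shared places below it, and that of molasses to glucose was 4.24, with 80.6% of the 165 places below it. The peak was found after the lists were inspected and its position is closer to wwm3. A weaker peak lay further out, still within 4000 bp of the gene start, in both laboratory lists with enrichments of 1.95 and 2.04 and in glucose replicate 1 with 2.47. Whether the strong site acts on fbp1, wwm3 or neither was not tested. Between this site and the gene the annotation places the fbp1 noncoding transcripts, which in S. pombe are known to be made across the upstream region when glucose runs out.

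In the laboratory lists every member had at least 1 peak over its coding exons. These peaks were between 947 and 1446 bp wide at fbp1, gld1, dak1, dak2 and gpd1, where the median peak of the lists was 400 and 397 bp, but 595 and 456 bp at gpd2 and between 271 and 673 bp at gut2. Together the peaks covered 89.8% and 91.9% of the coding sequence of fbp1 in the laboratory lists, 87.0% and 70.2% of gld1, 83.0% and 77.7% of dak1, 84.0% and 77.3% of dak2, 81.8% and 89.1% of gpd1, 53.0% and 40.6% of gpd2 and 61.5% and 63.8% of gut2. The median over all protein-coding genes was 13.6% and 17.2%, and 24.0% and 25.7% of genes were covered over more than 50% of their length. In Wilmar-P in molasses 5 members had no coverage, and the exceptions were gpd1 with 94.6% and 92.7% and dak2 with 54.3% and 55.7%. In glucose replicate 1 these genes had 36.6% and 12.1%, and in replicate 2 none. The cause of this coverage was not tested.

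**Figure D3:**
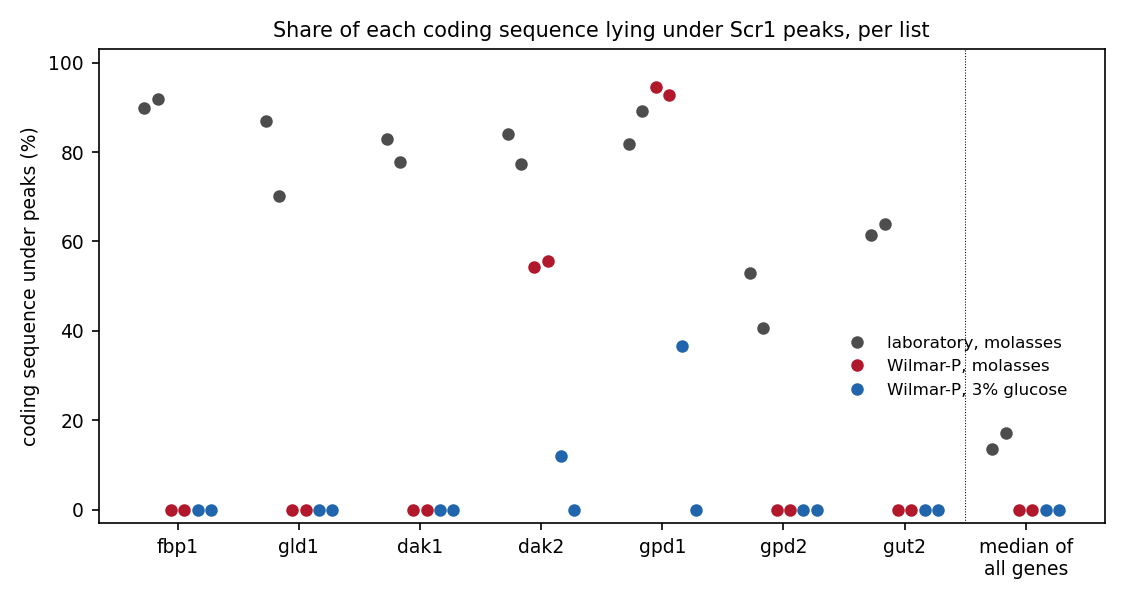
Percentage of each coding sequence lying under peaks (y axis) in each of the 6 lists, with laboratory S. pombe in molasses in grey, Wilmar-P in molasses in red, Wilmar-P in 3% glucose in blue, and the median over all protein-coding genes at the right. The laboratory values of all 7 genes, from 40.6% to 91.9%, sit above the laboratory medians of 13.6% and 17.2%. Outside the laboratory strain only gpd1 and dak2 are above 0, and the medians over all genes are 0 too.

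Other genes of the route were described by a fixed list. It held 9 glycolytic and gluconeogenic enzyme genes, fba1, tpi1, tdh1, gpd3, pgk1, gpm1, eno101, pgi1 and pyr1. Of these, 8 had a summit outside coding exons in both lists in laboratory S. pombe, against 5.48% of all protein-coding genes. For Wilmar-P on molasses 8 did, against 13.1%, and for Wilmar-P on glucose 7 did, against 4.62%. The enzyme without one in any group was pgi1, glucose-6-phosphate isomerase, and pyr1, pyruvate carboxylase, had one in only 1 glucose list. Equal counts need not mean the same places. The best such fba1 summits lay 121 and 119 bp upstream in the laboratory lists. For Wilmar-P on molasses they lay 1588 and 1604 bp upstream. The gene tpi1 encodes triose phosphate isomerase, which handles the same dihydroxyacetone phosphate that Dak1 and Dak2 make. Its laboratory enrichments were 1.47 and 1.69, at the low ranks of 3966 and 3191, with summits 501 and 469 bp upstream. For Wilmar-P on molasses they were 31.0 and 24.2, with summits 671 and 680 bp upstream. In glucose they were 6.61 and 6.69, with summits 707 and 711 bp upstream. Whether the laboratory and Wilmar-P summits mark the same site was not tested, so these values are not read as a strain difference at a shared place. In molasses the highest enrichment among these 9 enzyme genes was at tdh1, glyceraldehyde-3-phosphate dehydrogenase. It was 15.2 and 11.5 in the laboratory lists and 56.5 and 40.8 for Wilmar-P. In glucose tdh1 had 11.96 and 5.09, below gpd3, of the same enzyme family, with 14.3 and 8.19. Of 8 regulators linked to fbp1, scr1, atf1 and git3 had a summit outside coding exons in both lists of all 3 groups, against 3.74% of all genes. The activator of fbp1, rst2, had one in both Wilmar-P molasses lists, where 13.1% of all genes did, with 8.13 and 5.93. It also had one in 1 glucose list. The genes pcr1, tup11, tup12 and pka1 had none outside coding exons in any list. No further gene carried one of the searched glycerol terms in its annotated product.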

How the data were processed

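Scr1 ChIP-seq peak lists of 6 of the 15 samples were used. The remaining samples, of RNA polymerase II and of input, were not used here. The submitters' processing notes name cutadapt 1.9.1, Bowtie2 2.3.1 and MACS2 2.1.1 with the build ASM294v2. Peaks were called by the authors for each replicate against an input, before the irreproducible discovery rate (IDR) step. The deposited fold enrichment is a ratio over local background, and the deposited −log10 p and −log10 q give significance. Both depend on read depth, which is unknown, and on the input, of which the series holds a single sample for each group.

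Lists were read with Python 3.11.15, numpy 2.4.6 and scipy 1.17.1, and figures drawn with matplotlib 3.10.9. The annotation and sequences came from the RefSeq release of the same assembly, whose chromosome lengths the peaks do not exceed. Peaks on other sequences of the authors' reference were left out. Motifs were searched within 100 bp of summits. The IDR model was refitted from 36 starts, keeping the fit of highest likelihood with an irreproducible part, a rule settled after the fits were seen. The gene assignment and the IDR were tested on simulated data.

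The members, lists and tests were chosen with earlier results of these data known. Genes named are the 7 members, genes sharing their peaks, the 5 genes nearest to gld1 and listed genes called in any group. The 5 nearest were taken from genes sharing no peak with gld1, the member whose mean percentile in Wilmar-P in molasses was highest. The fbp1 distal site was chosen after its values were seen. Alternatives changed the distance, the start used, the summit class, the thresholds, the list length, the overlap, the gene assigned and the replicates required.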

Additional observations from a re-analysis of the deposited data

How the results depend on the processing

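The counts of members with a peak were recomputed under 11 alternatives and 3 more added after the data were seen. The share over all protein-coding genes was not recomputed under most of them. These counts therefore show how the member calls move and cannot be read against a background. With the replicate number as a block, the added paired comparison of the Wilmar-P lists by number, 0 members had a peak in molasses and none in glucose in both pairs, against 1 without the block. No label says that the numbers mark shared cultures. With a fold enrichment of at least 3, 3 members remained in both laboratory lists, 1 member (gut2) was found in Wilmar-P in molasses only and 0 in the laboratory strain only. With lists cut to the 228 strongest peaks, 3 members were called in the laboratory strain and 2 in Wilmar-P in molasses, 1 in the laboratory strain only and 0 in molasses but not glucose. The last count was also 0 with summits outside coding exons and with the nearest gene only. With an IDR of at most 0.05 it was 2 (dak2 and gut2), and 1 member was called in the laboratory strain only. In an alternative added after seeing the data, with summits outside coding exons within 250 bp in both lists, 4 members were called in the laboratory strain, 1 in the laboratory strain only and 0 in molasses but not glucose. In another added one, 4000 bp upstream, fbp1 joined both Wilmar-P groups, giving 5 and 4 members. Leaving out 1 list at a time, the molasses but not glucose count ranged from 0, without glucose replicate 2, to 2, without Wilmar-P molasses replicate 1. Of 147 recomputed percentiles, 12 moved by more than the spread between replicates. This count does not measure stability. Where no list held a peak, as for dak1 and gpd2 in both Wilmar-P groups, the percentile was 0 and stricter settings could not move it. For dak2 in glucose the spread was 35.7, so a fall from 25.3 to 0 without coding summits did not count as moved. The genes gld1 and gpd1 were called in every group under each alternative that recomputed the group counts. The cause of these changes was not tested. Each group has 2 lists and no known depth, so a missing peak is not evidence that Scr1 was absent.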

Other observations

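Upstream of gpd1 the Wilmar-P molasses lists held a pair of further summits that neither the laboratory nor the glucose lists held. The nearer lay 775 and 785 bp upstream in replicates 1 and 2, with fold enrichments of 5.32 and 3.80 and ranks of 370 and 404. The farther lay 1798 and 1816 bp upstream, with 6.61 and 4.92 and ranks of 324 and 343. Both lie in the annotated noncoding RNAs SPNCRNA.1657 and SPNCRNA.6407. Of 642 summits of Wilmar-P in molasses replicate 1 outside coding exons with a partner within 250 bp in replicate 2, 57.2% had no summit within 250 bp in any of the 4 other lists. The gpd1 pair was singled out after its values were seen and belongs to that larger class. The third summit at gpd1, 161 to 177 bp upstream, was in all 6 lists, so that 1 upstream region held summits of both kinds.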
